A study of Nicotiana tabacum with 9 samples.

Results

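A set of 70 tobacco genes is described whose transcripts were at least 2-fold more abundant in pollen tubes after 6 h of growth at room temperature (RT) than after 3 h, and whose level after heat stress (HS) stayed close to that of the nonstressed tubes of the same age. The set was selected on measured values of these libraries. Counts were scaled with TMM (a scaling of library sizes in edgeR) to counts per Mio counts (CPM), genes over 0.5 CPM in 2 or more of the 9 libraries were kept, and a gene entered the set when its mean at RT 6 h was at least 1 CPM, the log2 ratio of the RT 6 h to the RT 3 h mean was at least 1, and the log2 ratio of the HS to the RT 6 h mean lay between -0.5 and 0.5. Of 24013 genes that passed the filter on low counts, 181 met the limits on level and growth, and 70 of these (38.7%, or 0.292% of all genes) lay within the heat limits. All 70 passed the filters of the 3 pairwise tests as well. A further 73 growth-raised genes were lower under HS by 0.5 or more on the log2 scale and 38 were higher by as much. Because the ratios of RT 6 h to RT 3 h and of HS to RT 6 h chose the genes, they are given as a description, and the ratio of HS to RT 3 h is bounded by them.

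Pollen of Nicotiana tabacum cv. Samsun-NN, pooled from several plants in each experiment, was germinated in vitro on cellophane over solid medium. Every culture spent its first 3 h at RT. It was then harvested (RT 3 h), kept at RT for another 3 h (RT 6 h), or moved to 37°C for another 3 h (HS 3 + 3 h), and 3 non-stranded mRNA libraries were sequenced per condition. The sources used here do not say if the libraries of one condition go back to different pools of pollen, so the errors measure the spread between these libraries, which may be technical. Counts on genes ranged from 14931693 in HS replicate 1 to 26772286 in RT 3 h replicate 2, so that 0.5 CPM stood for between 7.47 and 13.4 counts. As a check of the tissue label, 6 genes named after pollen in the reference gene table (ntp805, ntp201, ntp302, PPME1, NPG and PLIM-2) together held between 48508 and 57935 CPM (here without TMM) in every library, while 7 genes of photosynthesis (Lhcb4, Lhcb5, Lhcb6, CAB21, psbS and both Rca genes) together held at most 0.374 CPM and TKPR1, an enzyme of the anther tapetum, at most 0.112 CPM.

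Pollen tubes elongate at their tip and carry the sperm cells to the ovule. Much of the mRNA used early on is stored in the dry grain, and new transcripts are added while the tube grows. Heat leads plant cells to make chaperones and to remodel membranes and transcription, so a growth-associated transcript may fall, rise or keep its level when the temperature goes up.

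The members differed widely in level. Their RT 6 h means ran from 1.01 to 187 CPM with a median of 3.52 CPM, and 19 genes had at least 10 CPM, 28 between 2 and 10 CPM, and 23 less than 2 CPM. The median over the set was 1.26 CPM at RT 3 h, compared with 2.96 CPM under HS. The 3 most abundant genes contributed 44.0% of the summed RT 6 h level of the set, and the first 5 contributed 57.9%. Summed over all 70 genes, the libraries held 419 to 446 CPM at RT 3 h, 989 to 1044 CPM at RT 6 h and 1064 to 1139 CPM under HS. A higher sum under HS than at RT 6 h went with more genes below than above their RT 6 h mean (44 against 26), and the 3 most abundant members were among the 26. This order of the sums depended on the scaling, since without TMM the libraries held 474 to 485, 1009.8 to 1032 and 963 to 1029 CPM in the same order of groups, so that HS overlapped RT 6 h. The samples were bulk RNA of whole pollen tubes, and CPM are relative to the other counts of a library. A change in the share of cells with a transcript, in its level per cell or in the rest of the RNA cannot be told apart.

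The log2 ratio of RT 6 h to RT 3 h had a median of 1.16 over the set, with quartiles of 1.09 and 1.55. It reached 1.5 in 20 genes, 2 in 5 genes and 5.10 in 1 gene. In the fit across all genes, 66 of 70 were called higher at RT 6 h (log2FC over 1 and FDR of at most 0.005 by edgeR's quasi-likelihood test), beside 0.911% of all 23043 genes tested, and in all 70 every RT 6 h library lay above every RT 3 h library, which held for 19.5% of all genes. The rule used this contrast, so these shares are set side by side only. The 4 genes not called were LOC107787665, LOC107803552, LOC107803902 and LOC107778304, each between 1.01 and 1.24 CPM at RT 6 h.

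**Figure D1:**
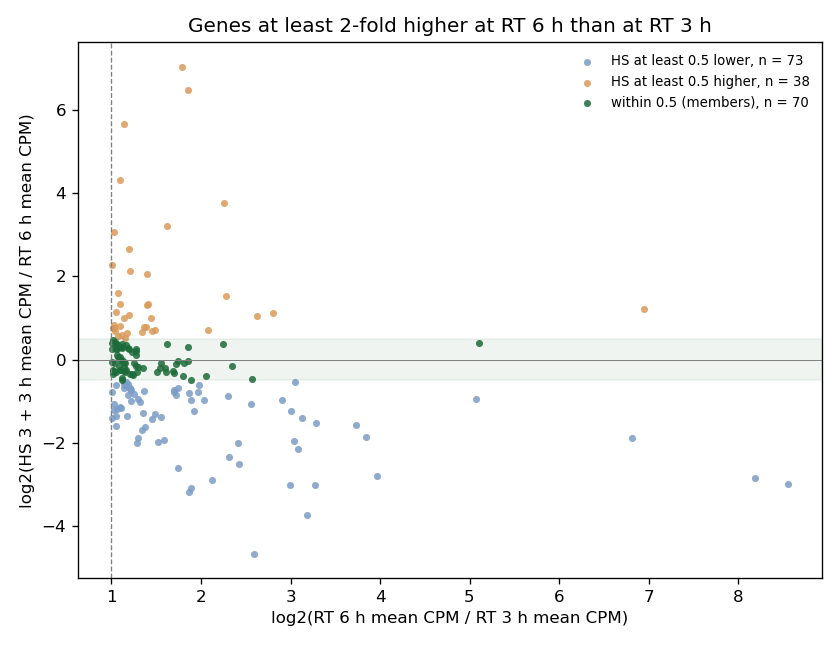
Each point is one of the 181 genes with at least 1 CPM at RT 6 h and a log2 ratio of RT 6 h to RT 3 h of at least 1 (horizontal axis, dashed line at 1), set against the log2 ratio of HS 3 + 3 h over RT 6 h (vertical axis). The shaded band spans -0.5 to 0.5 and holds the 70 genes described here, with 73 genes below it and 38 above it.

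The log2 ratio of HS to RT 6 h had a median of -0.09 over the set, with quartiles of -0.28 and 0.26, and lay within 0.1 of 0 in 13 genes. An FDR of at most 0.005 between HS and RT 6 h, irrespective of the size of the change, was found for 13 of the 70 genes, 8 of them higher and 5 lower under HS, beside 31.9% of all 23053 genes tested. Which members were called, and so the balance of higher to lower, depended on the scaling, though no called member changed its sign. Without TMM the heat log2FC of every member was lower by 0.15 or 0.16, and the median over all genes moved from 0.01 to -0.15. Of the 8 higher calls 6 were lost, and 7 other members were called lower, which left 2 higher and 12 lower. Over all genes 7738 had such an FDR in either direction without TMM, against 7349 with it. The groups did not overlap in 26 members (11 higher and 15 lower under HS), beside 50.4% of all genes. Without TMM 7 members were higher and 28 lower, a count that has no share of all genes beside it and is a description only. The 95% interval of the log2FC lay wholly between -0.5 and 0.5 for 26 genes, included 0 for 46, and went past -1 or 1 for none. The width of the interval went with the level, and the standard error (SE) of the heat log2FC had a median of 0.07 in the genes with at least 10 CPM and of 0.25 in those with less than 2 CPM. In the first class the interval stayed inside the band for 14 of 19 genes, and in the class under 2 CPM for 2 of 23. Of the 13 genes with an FDR of at most 0.005, 10 had at least 10 CPM and 3 had between 2 and 10 CPM. For most of the low members a change larger than the band was not excluded at this depth.

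**Figure D2:**
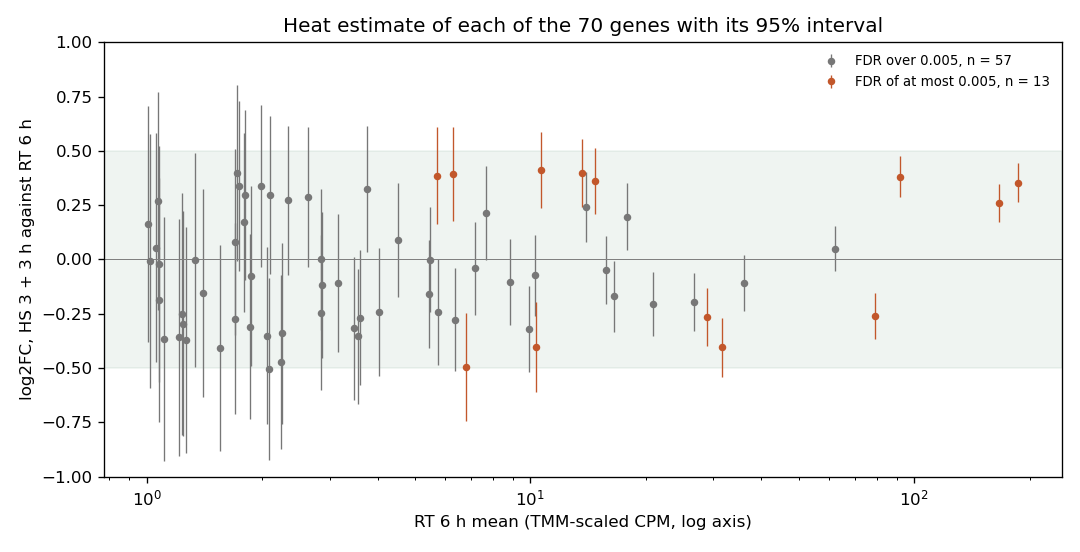
The log2FC of HS 3 + 3 h against RT 6 h (points) with its 95% interval from the edgeR fit on 6 libraries (bars) is plotted for each of the 70 genes against its RT 6 h mean in CPM on a log axis. The 13 genes with an FDR of at most 0.005 are in orange, 10 of them at 10 CPM or more, and the intervals widen toward the low levels on the left.

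Between HS and RT 3 h, 49 of the 70 genes were called higher under HS, beside 7.36% of all 23373 genes tested. The HS mean was between 1.56 and 45.5 times the RT 3 h mean, with a median of 2.49, and was at least 2 times as high in 50 genes. In 67 members all HS libraries lay above all RT 3 h libraries, beside 28.3% of all genes. The exceptions were LOC107782690, LOC107803552 and LOC107803902, which had 1.21, 1.02 and 1.23 CPM at RT 6 h.

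The 3 most abundant members are uninterrupted genes of 1 exon block (merged exons) with a coding sequence, and they are known here by identifier only. LOC107819365 lies on scaffold NW_015822001.1 of the TN90 assembly from 8649 to 9478 on the plus strand. It had 79.6, 84.4 and 86.9 CPM at RT 3 h, 183, 199 and 179 CPM at RT 6 h, and 240, 231 and 247 CPM under HS. The 3 groups did not overlap, with HS highest, and the means ± SD were 83.6 ± 3.71, 187 ± 10.8 and 239 ± 7.90 CPM (n = 3 each). The log2FC was 1.17 (SE 0.06) from RT 3 h to RT 6 h and 0.35 (SE 0.04) from RT 6 h to HS, with a 95% interval of 0.27 to 0.44 for the latter, which was 0.20 without TMM.

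LOC107828695, on scaffold NW_015851561.1 from 7091 to 7955 on the minus strand, followed the same course. Its values were 70.7, 74.3 and 74.3 CPM at RT 3 h, 166, 173 and 162 CPM at RT 6 h, and 201, 198 and 201 CPM under HS. Again the groups did not overlap, and the heat log2FC was 0.26 (SE 0.04), but 0.10 without TMM, where its FDR of 0.0461 by edgeR missed the limit. LOC107776183, on scaffold NW_015901506.1 from 18928 to 20099, had 42.6, 43.1 and 47.5 CPM at RT 3 h, 89.0, 96.5 and 90.3 CPM at RT 6 h, and 123, 117 and 121 CPM under HS. Its groups did not overlap either, and its heat log2FC of 0.38 (SE 0.05) was the largest of the first 3, and was 0.23 without TMM. Per length, these genes also led the set, with RT 6 h means of 225, 193 and 78.5 reads per kilobase of exon and Mio counts (RPKM, from TMM-scaled CPM) against a median of 2.02 RPKM over all 70.

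Both LOC107819365 and LOC107828695 stand downstream of a far more abundant gene on the same strand. The former begins 1268 bases after LOC107819364, which had 1582 ± 18.9 CPM at RT 3 h, 1794 ± 53.6 CPM at RT 6 h and, under HS, 2022 ± 49.6 CPM (n = 3 each). The latter begins 1975 bases after LOC107828693, with 1168 ± 27.0, 1399 ± 50.9 and 1521 ± 19.4 CPM. The log2 ratios of these neighbours were 0.18 and 0.26 with growth and 0.17 and 0.12 with HS, with TMM in the same direction as those of the members and smaller. Without TMM the median heat log2FC over all genes was -0.15 instead of 0.01. That shift is about as large as the heat ratios of the neighbours, so their direction under HS depends on the scaling. LOC107788560, a member with 1.26 CPM at RT 6 h, begins 549 bases after LOC107788561, which had 549 ± 20.9 CPM (n = 3). Whether reads running on from a neighbour contributed to these members was not tested.

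The next members in order of level did not all lie above their RT 6 h values under HS. LOC107811238, with 2 exon blocks, had 37.3, 36.6 and 37.5 CPM at RT 3 h, 77.5, 84.1 and 76.1 CPM at RT 6 h, and 67.3, 59.9 and 71.8 CPM under HS. The HS libraries lay between the other groups without overlap, and the heat log2FC was -0.26 (SE 0.05). LOC107776322 had 27.1, 29.9 and 31.7 CPM at RT 3 h, 60.2, 66.2 and 60.4 CPM at RT 6 h, and 66.5, 62.7 and 64.5 CPM under HS. Here the HS and RT 6 h libraries overlapped (without TMM, HS was lower throughout), and the interval of the heat log2FC ran from -0.06 to 0.15, the narrowest of those in the set that include 0.

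LOC107812476, with 8 exon blocks, had 36.0 ± 3.31 CPM at RT 6 h against 33.8 ± 3.94 CPM under HS (n = 3 each), and these groups overlapped. They overlapped without TMM as well, but there the heat log2FC was -0.26 and its FDR of 0.000783 by edgeR passed the limit. LOC107784467, with 12 exon blocks, had 28.8 ± 1.89 CPM at RT 6 h against 24.1 ± 1.29 CPM under HS without overlap, for a heat log2FC of -0.26 (SE 0.07). LOC107796659 had 20.9 ± 1.27 and 18.2 ± 1.44 CPM, and its highest HS library exceeded its lowest RT 6 h library. Without TMM its HS libraries were all lower, with a heat log2FC of -0.36 and an FDR of 4.38e-05 by edgeR, within the limit. LOC107812476, LOC107784467 and LOC107796659, too, are known here by identifier only.

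The largest rise with growth belonged to LOC107761861, a coding gene of 8 exon blocks on scaffold NW_015874836.1 from 820 to 7967 on the plus strand. It was near the limit of detection at RT 3 h, with 4, 4 and 7 counts or 0.155, 0.137 and 0.256 CPM. At RT 6 h it had 5.65, 7.08 and 6.10 CPM, and under HS 8.69, 8.31 and 7.94 CPM. All HS libraries exceeded all RT 6 h libraries, by a log2FC of 0.39 (SE 0.11), which was 0.24 and no longer within the FDR limit without TMM. The growth log2FC was 5.08 (SE 0.37), and 4.63 with a prior count of 2, so its size is uncertain at so few counts at RT 3 h.

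LOC107759893, with 5 exon blocks, had the second largest rise and went from 0.348, 0.376 and 0.329 CPM to 2.09, 1.99 and 2.19 CPM, and to 1.93, 1.28 and 1.37 CPM under HS. All 3 HS libraries were below the RT 6 h libraries, and the heat log2FC of the fit was -0.50 (SE 0.21), at the edge of the band. LOC107763532 went from 0.193, 0.410 and 0.220 CPM to 1.42, 1.68 and 1.10 CPM, with 1.34, 1.32 and 1.14 CPM under HS. Its HS libraries lay within the range of RT 6 h.

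LOC107813607 and LOC107809861 were the other members with a more than 4-fold rise. The former had 2.90, 3.45 and 3.00 CPM at RT 3 h, 13.3, 15.8 and 15.0 CPM at RT 6 h, and 19.7, 18.7 and 18.7 CPM under HS, so its 3 groups formed ascending steps. The latter had 8.40, 7.69 and 6.70 CPM, then 30.6, 31.2 and 32.9 CPM, and 27.6, 21.5 and 23.5 CPM under HS, so that HS lay below RT 6 h in every library. Their heat log2FC values were 0.36 (SE 0.08) and -0.40 (SE 0.07), and both had an FDR of at most 0.005 by edgeR. The opposite directions stood inside the same band. Without TMM the values were 0.21 and -0.56, and the former had an FDR of 0.0243 by edgeR, which missed the limit.

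LOC107784252, LOC107760504 and LOC107776013 complete the 10 largest rises with 2 annotated genes described next. LOC107760504, with 6 exon blocks, had 4.30, 4.24 and 4.54 CPM, then 15.2, 15.9 and 16.2 CPM, and 16.4, 14.2 and 15.5 CPM under HS. The HS libraries overlapped those of RT 6 h, though not without TMM, where they were lower. LOC107776013 had 3.15 ± 0.115 CPM at RT 6 h against 2.97 ± 0.335 CPM under HS (n = 3 each), again with overlap. LOC107784252 had 2.24 ± 0.204 and 1.60 ± 0.244 CPM without overlap.

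**Figure D3:**
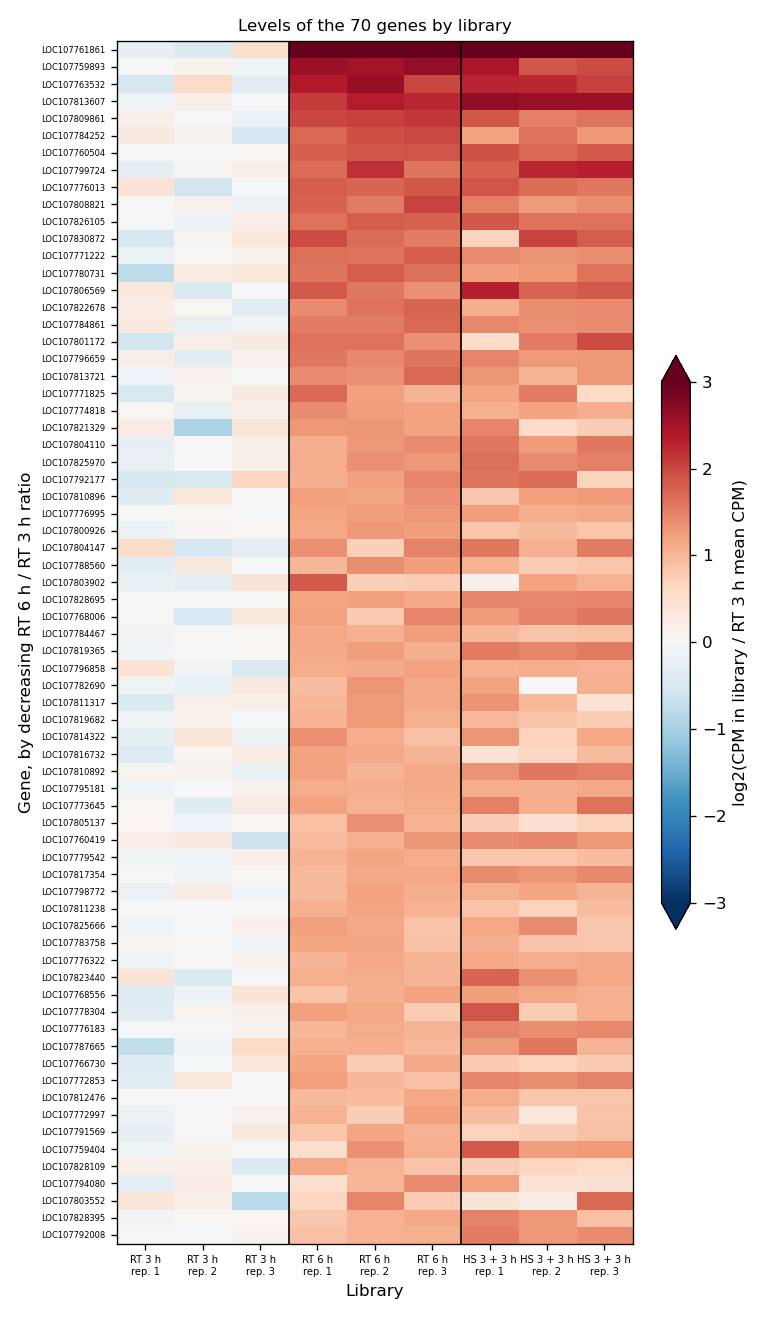
Rows are the 70 genes in decreasing order of their RT 6 h to RT 3 h ratio, columns are the 9 libraries, and colour is the log2 ratio of the CPM in a library to the RT 3 h mean of the gene, clipped at -3 and 3 (LOC107761861 exceeds the scale). All RT 6 h and HS columns are red in nearly every row, and single HS libraries stand out in rows of low level, such as replicate 1 of LOC107803902.

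Library by library, the median over the 70 genes of the log2 ratio to the RT 3 h mean was 1.19, 1.24 and 1.21 in the RT 6 h libraries and 1.30, 1.27 and 1.28 under HS. HS replicate 1, the shallowest library, was the highest of the HS libraries in 39 of the 70 genes, replicate 2 in 13 and replicate 3 in 18. RT 3 h replicate 3, with 25200926 counts, was likewise the highest of its group in 39 genes. The part of depth in these orders was not tested. Leaving out HS replicate 1 gave 70 genes by the same rule, and each of the other libraries left out in turn gave between 66 and 82.

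A name or an Arabidopsis (Arabidopsis thaliana) homolog was found for 10 members, 8 in the lists of the study's supplement and 2 in the reference gene table, which leaves 60 genes known here by identifier only. The homology lists were used here only in part, so a member without a name may well have a homolog. Roles below are those known for the Arabidopsis proteins, or for the named family, and were not measured in these samples. Of the 709 lipid genes of the study with enough counts, 4 were members (0.564%), and of the 1319 regulators 1 was (0.0758%), beside 0.292% of all genes.

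Both members with an annotation in glycerolipid metabolism were homologs of AT3G02600, which is listed as LPP3, a phosphatidate phosphatase. Such enzymes take the phosphate from phosphatidic acid and leave diacylglycerol, the precursor of storage and membrane lipids. LOC107805137 (scaffold NW_015940344.1, 1585 to 6903, plus strand, 11 exon blocks) had 3.25, 2.94 and 3.18 CPM at RT 3 h, 5.86, 8.03 and 6.45 CPM at RT 6 h, and 5.20, 4.43 and 4.97 CPM under HS. The HS libraries lay between the other groups without overlap, and the heat log2FC of -0.50 (SE 0.12, interval -0.74 to -0.25) placed the gene at the lower edge of the band. The gene did not meet the rule when any one RT 6 h library, or HS replicate 1, was left out. Whether the heat or the growth limit was missed can differ between these settings.

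LOC107813721 (scaffold NW_015806709.1, 25131 to 30392, plus strand, 9 exon blocks) had 0.619, 0.718 and 0.622 CPM at RT 3 h, 1.76, 1.68 and 2.15 CPM at RT 6 h, and 1.63, 1.32 and 1.60 CPM under HS. Its HS libraries were all below RT 6 h as well, with a heat log2FC of -0.31 (SE 0.21) whose interval of -0.74 to 0.12 includes 0. The other tobacco homologs of LPP3, LOC107777374 and LOC107821019, were not members. Their growth log2FC values were -0.08 (SE 0.26, FDR = 0.861) and 0.29 (SE 0.21, FDR = 0.363, both by edgeR). Homologs of LPP1, LOC107819401 and LOC107819521, were far more abundant, at 305 ± 4.70 and 246 ± 5.36 CPM at RT 3 h, 282 ± 7.79 and 218 ± 9.84 CPM at RT 6 h, and 441 ± 7.83 and 274 ± 7.31 CPM under HS (n = 3 each), with log2FC values of 0.64 (SE 0.04) and 0.33 (SE 0.04) under HS, which were 0.49 and 0.17 without TMM, and an FDR of at most 0.005 in both with TMM.

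Across the 113 genes of glycerolipid metabolism that were tested, 3 were called higher and 2 lower at RT 6 h than at RT 3 h, with a median growth log2FC of -0.04, and 2 were called higher and 2 lower under HS than at RT 6 h, with a median of -0.03. Over all genes tested, 0.911% were called higher and 0.785% lower with growth, 6.24% were called higher and 2.87% lower under HS, and the median was 0.01 in both contrasts.

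In sterol metabolism the member was LOC107821329 (scaffold NW_015827913.1, 30370 to 31785, plus strand, 1 exon block), a homolog of SMT2, the sterol methyltransferase that adds the second side-chain methyl group on the way to sitosterol. It was one of the least abundant members, at 0.542, 0.239 and 0.585 CPM at RT 3 h, 1.13, 1.15 and 1.06 CPM at RT 6 h, and 1.26, 0.685 and 0.775 CPM under HS. The HS libraries lay on both sides of the RT 6 h libraries, and the interval of the heat log2FC ran from -0.93 to 0.19. Without RT 3 h replicate 2 or HS replicate 1 the gene did not meet the rule. Homologs of SMT1, the first methyltransferase of the pathway, were not members. Of these, LOC107813194 had 338 ± 15.4, 348 ± 9.52 and 376 ± 4.94 CPM and LOC107825894 had 247 ± 13.8, 260 ± 6.71 and 249 ± 3.86 CPM, each given for RT 3 h first, then RT 6 h, then HS (n = 3 each). Of 40 sterol genes tested with growth, 1 was called higher and 1 lower, beside 0.911% and 0.785% of all genes.

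The lipase list held LOC107773645 (scaffold NW_015898450.1, 2679 to 3806, minus strand, 1 exon block), a homolog of ARAB-1 (AT1G28670), which belongs to the GDSL family of lipases and acylhydrolases. It had 1.01, 0.752 and 1.13 CPM at RT 3 h, 2.22, 1.99 and 2.07 CPM at RT 6 h, and 2.75, 2.06 and 2.96 CPM under HS. The last 2 groups overlapped, and the interval of the heat log2FC was -0.07 to 0.66. It did not meet the rule without RT 3 h replicate 2. Its neighbour LOC107773644, 309 bases away on the opposite strand, had a growth log2 ratio of 1.59 and a heat log2 ratio of -0.34 but only 0.464 CPM at RT 6 h, under the limit on level. Because the libraries keep no strand, reads of such pairs cannot be assigned by strand. No member overlapped another annotated gene.

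The regulator was LOC107795181 (scaffold NW_015924983.1, 21558 to 25505, minus strand, 2 exon blocks), listed in the MYB family as a homolog of AT5G04760. MYB proteins bind DNA and regulate transcription. Its levels were 1.20, 1.30 and 1.43 CPM at RT 3 h, 2.85, 2.79 and 2.89 CPM at RT 6 h, and 2.82, 2.79 and 2.92 CPM under HS. The RT 6 h and HS libraries covered nearly the same narrow range, and the heat log2FC was 0.0004 (SE 0.16) with an interval of -0.32 to 0.33. Without TMM it was -0.15, and the HS libraries lay below those of RT 6 h. The other homologs of AT5G04760 (LOC107769058, LOC107782691 and LOC107827800) had growth log2FC values of 0.46 (SE 0.15), 0.24 (SE 0.25) and 0.38 (SE 0.17). Of the 53 MYB genes tested with growth, 3 were called higher and 0 lower by edgeR, beside 0.911% and 0.785% of all genes. The median growth log2FC of the family was 0.18, against 0.01 over all genes, and a trend of the family was not tested.

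LOC107808821 is named H1c in the reference table, a linker histone, which binds the DNA between nucleosomes. It lies on scaffold NW_015946945.1 from 11532 to 12511 on the minus strand. It had 3.02, 3.28 and 2.63 CPM at RT 3 h, 10.1, 8.76 and 12.2 CPM at RT 6 h, and 8.54, 7.22 and 7.89 CPM under HS. Its HS libraries lay between the other groups without overlap, at a heat log2FC of -0.40 (SE 0.10, interval -0.61 to -0.20). H1d (LOC107832044), a related linker histone and not a member, had 11.2 ± 0.295 CPM at RT 3 h and 18.4 ± 1.71 CPM at RT 6 h, compared with 10.4 ± 0.407 CPM under HS (n = 3 each), with log2FC values of 0.73 (SE 0.08) for growth and -0.82 (SE 0.09) for HS. Between HS and RT 3 h the log2FC of H1c was 1.38 (SE 0.13) and that of H1d was -0.11 (SE 0.09, FDR = 0.343 by edgeR). The difference between both genes was not tested.

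**Figure D4:**
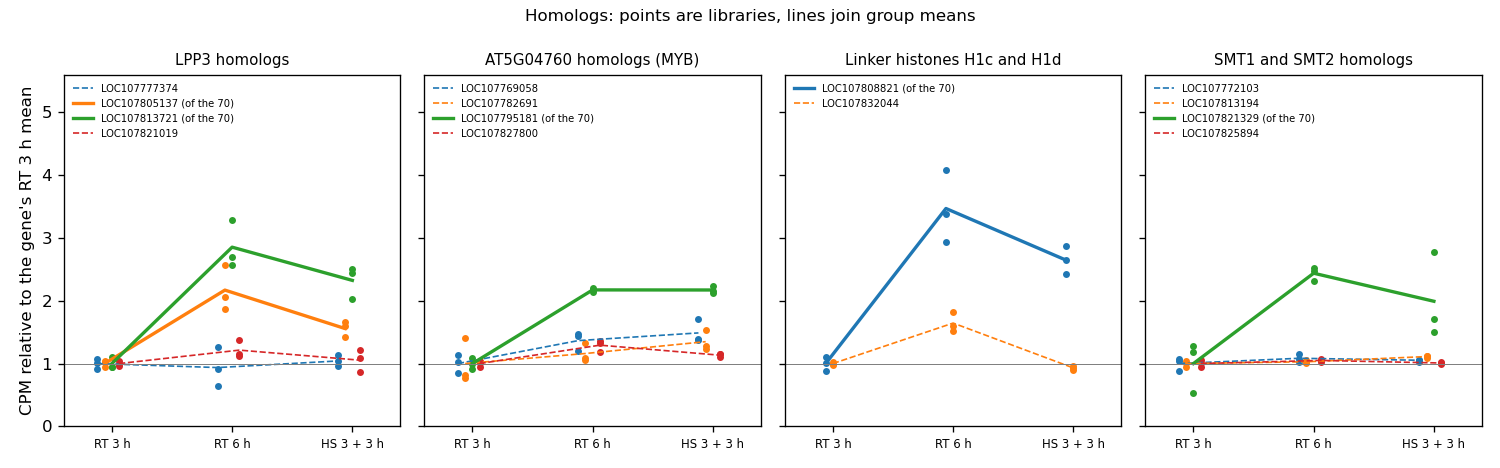
CPM relative to the RT 3 h mean of each gene is plotted for homologs of LPP3, AT5G04760 and SMT1 or SMT2 and for the linker histones, with points for libraries and lines through group means. Solid lines are members of the set and dashed lines are not, and at RT 6 h the solid lines reach means of 2.17 to 3.47 while no dashed line exceeds the level of H1d.

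LOC107784861 (scaffold NW_015911547.1, 16032 to 17135, plus strand) was the most abundant annotated member, a homolog of AT4G39260, a glycine-rich RNA-binding protein of ribonucleoprotein complexes. It had 10.7, 7.55 and 8.23 CPM at RT 3 h, 25.6, 25.8 and 28.9 CPM at RT 6 h, and 24.1, 22.7 and 23.5 CPM under HS. All HS libraries were slightly below those of RT 6 h, with a heat log2FC of -0.20 (SE 0.07), and its FDR of 0.0131 by edgeR did not pass the limit of 0.005, which it did without TMM (log2FC of -0.35, FDR = 1.34e-05).

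LOC107799724 (scaffold NW_015931562.1, 95732 to 98919, plus strand) is a homolog of AT5G01180, a transporter that carries small peptides across membranes. It had 0.851, 1.09 and 1.17 CPM at RT 3 h, 3.31, 4.78 and 3.17 CPM at RT 6 h, and 3.56, 4.98 and 5.25 CPM under HS. RT 6 h replicate 2 lay among the HS libraries, and without it the gene left the band.

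LOC107760419 (scaffold NW_015870051.1, 37028 to 41743, minus strand) was listed with AT1G20160, a subtilisin-like protease. It had 1.24, 1.30 and 0.695 CPM at RT 3 h, 2.05, 2.26 and 2.70 CPM at RT 6 h, and 2.90, 2.97 and 2.65 CPM under HS. The lowest HS library lay just under the highest RT 6 h library, and the rule was not met without replicate 3 of RT 3 h or of RT 6 h. LOC107783758, named mc304 in the reference table without a role given, had 8.20, 7.96 and 7.21 CPM at RT 3 h, 17.6, 17.6 and 14.4 CPM at RT 6 h, and 16.6, 14.2 and 14.0 CPM under HS, with overlap between the last 2 groups. Without TMM the groups still overlapped, but its heat log2FC was -0.32 and its FDR of 0.000926 by edgeR passed the limit.

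**Figure D5:**
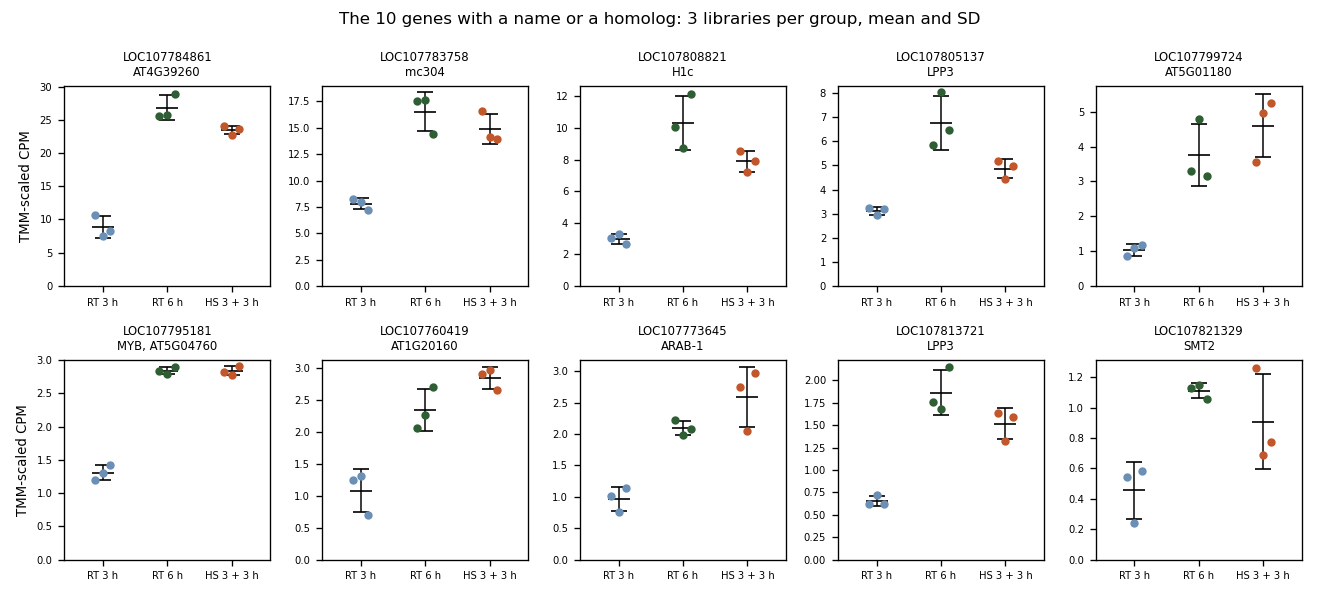
TMM-scaled CPM of the 10 members with a name or an Arabidopsis homolog, in decreasing order of RT 6 h level, with 3 libraries per group as points and the mean and SD as bars (each vertical axis starts at 0). In all 10 genes every RT 6 h and HS library lies above the RT 3 h libraries, and HS lies apart from RT 6 h in LOC107784861, LOC107808821 and both LPP3 homologs.

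The annotation of TN90 gives a coding sequence for 60 members and none for 10. Of the 62 members found in the reference gene table of another cultivar (K326), 57 were protein-coding, 4 lncRNA and 1 a pseudogene. Genes without a coding sequence made up 14.3% of the set, beside 9.72% of the 17127 genes with at least 1 CPM at RT 6 h, and had at most 7.65 CPM at RT 6 h, reached by the lncRNA LOC107828395. Genes of 1 exon block numbered 13 (18.6%), beside 6.44% of the genes with at least 1 CPM, and ranged from 1.02 to 187 CPM. Among the growth-raised genes that were lower under HS, 14 of 73 (19.2%) had 1 exon block, and among those higher under HS 3 of 38 (7.89%). The median exonic length was 1625 bases in the set, 1451 and 1655 bases in the other growth-raised groups and 1745 bases over the genes with at least 1 CPM. These shares were not tested, and nothing in them is particular to the set.

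The members were scattered over 69 scaffolds, and only 1 pair shared a scaffold. LOC107810892 (54654 to 55956) and LOC107810896 (55994 to 56619) follow each other on the plus strand of NW_015951003.1 with 37 bases between them. The first had 2.79, 2.80 and 2.27 CPM at RT 3 h, 6.07, 5.28 and 5.75 CPM at RT 6 h, and 6.68, 7.86 and 7.53 CPM under HS. The second, which has no coding sequence, had 0.929, 1.47 and 1.17 CPM, then 2.80, 2.72 and 3.09 CPM, and 2.08, 2.79 and 2.87 CPM. Whether they are separate transcripts was not tested. An expressed gene directly beside it on the scaffold was found for 23 members, and the median growth log2 ratio of these 28 neighbour entries was 0.12, with 3 of at least 1. Those 3 were the members of this pair, each counted as the neighbour of the other, and LOC107773644, which had only 0.464 CPM at RT 6 h.

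LOC107792008 was just inside the growth limit, with a log2 ratio of 1.00 (6.81 to 13.6 CPM), and LOC107823934 just outside it, also at 1.00 when rounded (0.987 to 1.97 CPM). In the same way LOC107759404 was inside the upper heat limit at 0.46 and LOC107800783 outside at 0.53, and LOC107784252 was inside the lower heat limit at -0.49 and LOC107827033 outside at -0.53. On level, LOC107778304 was inside with a mean of 1.01 CPM and LOC107799341 outside with 0.995 CPM. The growth log2 ratio was under 1.1 in 22 members, and 25 further genes within the heat limits had values between 0.9 and 1.

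Which genes belonged to the set depended on the scaling of the libraries. With library sizes left unscaled, the growth log2FC had a median of -0.13 over all genes and the heat log2FC one of -0.15, instead of 0.01 in both, and the rule gave 36 genes, 34 of them shared with the 70. No member changed the sign of its growth log2FC without TMM, but 32 fell under 1, and 5 changed the sign of their heat log2FC. Of the 13 members with a heat FDR of at most 0.005, none changed sign, but 6 lost the call. Without TMM, the LPP3 homolog LOC107805137, ARAB-1, the MYB gene, H1c, mc304 and LOC107760419 were outside the limits, whereas LOC107784861, LOC107799724, LOC107813721 and LOC107821329 were inside. Each library left out in turn kept 38 of the 70 genes inside every time, and 24 of these were also kept without TMM.

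The rule was also applied to 6 libraries and read in the 3 libraries of the remaining replicate number, a setting chosen after seeing the data. Leaving out replicates 1, 2 and 3, it chose 77, 87 and 90 genes, whose growth log2 ratio had medians of 1.14, 1.16 and 1.21 in the choosing libraries and of 1.10, 1.09 and 0.95 in those left out. The ratio was above 0 in 72, 82 and 83 of these genes and at least 1 in 43, 48 and 42. The heat log2 ratio in the libraries left out lay between -0.5 and 0.5 in 53, 64 and 65 genes, with 18, 11 and 13 higher and 6, 12 and 12 lower. With 1 library per condition these values carry no test. The libraries left out were scaled with TMM over all 9 libraries, so their values are not fully independent of the choosing libraries. The growth counts have no share of all genes beside them, so they are a description only. In the means over all libraries, 72.9% of all genes with at least 1 CPM at RT 6 h lay in the heat band. That share comes from means and not from single libraries, and the heat counts show nothing particular to the chosen genes.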

How the data were processed

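The members and the gene lists were chosen with earlier results of these data known, and the rule of the set uses the values it describes. The authors demultiplexed reads with bcl2fastq 2.17.1.14, aligned single-end reads to the TN90 genome with STAR 2.5.2a and deposited counts per gene from featureCounts 1.5.0-p1 as raw whole numbers. How reads with several alignments were counted is not given in the sources used here, so close homologs may share or lose reads. Columns of other per-sample values numbered 0. The tables hold 74044 genes. Library totals on genes were 14931693 to 26772286, and precision falls with the count behind a value.

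CPM values were computed with TMM over 9 libraries, and each contrast was fitted on its 6 libraries (R 4.3.3, edgeR 4.0.16, quasi-likelihood test, more than 0.5 CPM in at least 2 libraries, Benjamini-Hochberg FDR over all genes tested, limits of 1 on log2FC and 0.005 on FDR). Intervals are 95% intervals from these fits. DESeq2 1.42.0, other scalings, filters and limits, a replicate block and leaving out libraries were alternatives. Python 3.11.15 with pandas 2.3.3 served for tables.

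The genes named are the 10 members highest at RT 6 h, the 10 with the largest growth ratio, every member in the lists of regulators and lipid genes of the study, and the genes nearest each limit. Further members named for their position, their annotation or a test outcome, the homologs of named members, and the tissue check genes were picked with their values known. Gene names are those of the study's homology lists, as far as used here, and from the K326 reference gene table (assembly ASM71507v2). Lists by product name and protein or promoter sequences were not used here, since no product names or sequences were at hand. Positions, exon blocks and exonic lengths are those of the deposited TN90 annotation. The authors' fold changes in the supplement were not used.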

Additional observations from a re-analysis of the deposited data

How the results depend on the processing

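The number of genes meeting the rule fell from 70 to 36 without TMM, to 30 with a level limit of 5 CPM, to 29 with a heat band of 0.25 and to 20 with a growth limit of 1.5, and rose to 116 with a heat band of 1 and to 645 with a growth limit of 0.5. Calls of members as higher at RT 6 h numbered 35 instead of 66 without TMM, beside 134 instead of 210 over all genes. Members with a heat FDR within the limit numbered 20 instead of 13 at an FDR limit of 0.05, beside 10137 instead of 7349 over all genes. Without one library at a time, the set held 66 to 82 genes. The growth calls numbered 52 to 63, the heat calls 8 (without HS replicate 2) to 12, and the calls of HS over RT 3 h 45 to 47. Over all genes these calls numbered 173 to 218, 6040 to 6835 and 1561 to 1696. The cause of these shifts was not tested. The other settings stayed within 1.5 times the main count, and no called growth or heat log2FC of the 29 named members, of the homologs of LPP1 and LPP3 or of H1d changed its sign with other scalings, the replicate block, another prior count or a library left out. The count of heat calls was 14 without TMM, but 7 of them were shared with the 13. Without TMM, 14 growth and 17 heat log2FC values of 29 named members moved by more than the spread between replicates.

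To see if replicate numbers pair the samples, deviations of log2 CPM from the group mean of each gene were correlated between libraries. For RT 3 h and RT 6 h, same-numbered libraries gave 0.02 to 0.11 and differently numbered ones -0.08 to 0.02. For RT 6 h and HS the ranges were -0.02 to 0.01 and -0.03 to 0.03. For RT 3 h and HS they were -0.01 to 0.01 and -0.04 to 0.03. All these correlations were weak, which does not exclude a pairing. The samples were treated as unpaired, with a replicate block as an alternative. With the replicate block, 68 members were called higher at RT 6 h, 12 had a heat FDR within the limit and 49 were called higher under HS than at RT 3 h. Over all genes these calls numbered 223, 6912 and 1682.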
